A study of Mus musculus with 7 samples.

Results

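The Obox (oocyte-specific homeobox) genes Obox1, Obox2, Obox3, Obox5, Obox6, Obox7 and Obox8 were followed across mini-oocytes, the oocyte-like cells that mESCs form when they express oocyte transcription factors. The members were chosen by symbol and are the 7 genes among 55364 listed that carry one of these names. RNA-seq covered 3 groups of libraries. 4F-mini-oocytes expressed Nobox, Figla, Tbpl2 and Lhx8 and were collected at day 7 (n = 2, each a pool of 1000 cells) and at day 21 (n = 3, each a pool of 10 cells). 8F-mini-oocytes also expressed Stat3, Dynll1, Sub1 and Sohlh1 and were collected at day 21 (n = 2, each a pool of 10 cells).

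All libraries came from derivatives of one female mESC line, BVSC H18, a hybrid of 129 and C57BL/6 strains, and no library of untransduced mESCs or of in vivo oocytes was analysed here. In every group the factors were fused to a destabilization domain and stabilised by Shield-1, a ligand left out of the fresh medium from day 12 onward. Cells of day 7 were therefore collected before Shield-1 was left out, and cells of day 21 after it. Day, pool size and Shield-1 changed together, so effects of time, of the number of cells pooled and of Shield-1 cannot be told apart. The labels do not say whether replicates came from separate cultures, so p-values measure only the spread between these samples. In such pools, fewer cells that express a gene and less RNA per cell cannot be told apart either.

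Homeobox genes encode transcription factors with a homeodomain, a small fold that binds short AT-rich sites in DNA. The Obox genes form a cluster of close paralogs in rodents and are expressed mainly in germ cells. Transcripts of Obox1, Obox2, Obox5 and Obox7 are stored in the growing oocyte and passed to the embryo, whereas Obox3 is known as a gene transcribed after fertilization. OBOX proteins are known to act at the onset of embryonic transcription, with members able to stand in for each other. Among the factors that were introduced, NOBOX and LHX8 are also homeodomain proteins, FIGLA is a basic helix-loop-helix protein that binds E-boxes, and TBPL2 is the form of the TATA-binding protein that oocytes use.

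The members lay on chromosome 7 of mm10 within 1.51 Mb and are all annotated as protein-coding. From the centromeric side they were Obox8 (ENSMUSG00000099216.1, chr7:14331436-14333557, minus strand), Obox7 (ENSMUSG00000055942.13, chr7:14659496-14665996, plus), Obox2 (ENSMUSG00000074369.12, chr7:15388721-15398545, plus), Obox1 (ENSMUSG00000054310.16, chr7:15388948-15556866, plus), Obox3 (ENSMUSG00000066772.12, chr7:15479825-15639902, minus), Obox5 (ENSMUSG00000074366.9, chr7:15750131-15759800, plus) and Obox6 (ENSMUSG00000041583.8, chr7:15833241-15839678, minus). The annotated extent of Obox1 contains nearly the whole of Obox2, and their first exons shared 59 bases on the same strand (chr7:15388948-15389006). Reads within those bases were split between both genes by the counting that the authors used.

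The promoters are shown because the 4 expressed members shared a stretch of sequence in them. RefSeq (GRCm38.p6) gave promoter windows of 300 bases, of which the last 50 lie downstream of the annotated start, for 5 of the 7 members. The RefSeq start of Obox1 (chr7:15547257) lay far downstream of the GENCODE start of its extent given above (chr7:15388948). The Obox1 promoter printed here is therefore not that of the exon which shares bases with Obox2. Capitals mark a run of 44 bases that Obox1, Obox2, Obox5 and Obox7 shared without a difference, and in Obox3 the most similar window of that length, which differed at 3 bases.
Obox1 (chr7:15547007-15547306, plus strand): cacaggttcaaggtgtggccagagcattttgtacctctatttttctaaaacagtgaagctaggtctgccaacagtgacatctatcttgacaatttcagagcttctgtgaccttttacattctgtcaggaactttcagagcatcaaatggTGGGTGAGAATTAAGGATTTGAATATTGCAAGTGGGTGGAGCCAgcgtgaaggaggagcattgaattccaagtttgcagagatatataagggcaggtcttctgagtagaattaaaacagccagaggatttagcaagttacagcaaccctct
Obox2 (chr7:15388601-15388900, plus strand): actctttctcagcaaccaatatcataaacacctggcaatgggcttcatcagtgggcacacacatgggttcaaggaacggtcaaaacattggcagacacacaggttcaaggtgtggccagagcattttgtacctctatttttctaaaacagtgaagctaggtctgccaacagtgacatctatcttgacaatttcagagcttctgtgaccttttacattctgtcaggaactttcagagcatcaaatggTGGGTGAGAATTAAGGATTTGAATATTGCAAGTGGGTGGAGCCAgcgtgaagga
Obox5 (chr7:15750120-15750419, plus strand): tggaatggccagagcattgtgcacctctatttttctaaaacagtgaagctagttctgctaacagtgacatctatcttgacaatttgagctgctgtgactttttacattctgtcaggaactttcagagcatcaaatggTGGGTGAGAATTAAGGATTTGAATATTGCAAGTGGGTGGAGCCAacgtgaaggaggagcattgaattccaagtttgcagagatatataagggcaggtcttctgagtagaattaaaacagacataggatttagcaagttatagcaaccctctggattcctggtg
Obox7 (chr7:14659458-14659757, plus strand): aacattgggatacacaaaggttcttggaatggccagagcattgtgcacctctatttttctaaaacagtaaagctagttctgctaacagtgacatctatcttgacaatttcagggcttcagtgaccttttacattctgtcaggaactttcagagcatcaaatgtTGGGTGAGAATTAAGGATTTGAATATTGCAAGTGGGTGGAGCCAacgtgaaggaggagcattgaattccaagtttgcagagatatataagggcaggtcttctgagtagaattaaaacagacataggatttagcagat
Obox3 (chr7:15639728-15640027, minus strand): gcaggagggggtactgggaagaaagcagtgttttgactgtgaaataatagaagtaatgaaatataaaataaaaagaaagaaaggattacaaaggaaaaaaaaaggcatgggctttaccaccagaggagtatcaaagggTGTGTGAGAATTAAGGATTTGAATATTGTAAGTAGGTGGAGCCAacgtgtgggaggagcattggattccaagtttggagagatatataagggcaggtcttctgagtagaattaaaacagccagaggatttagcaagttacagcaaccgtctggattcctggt

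The run was defined as the longest stretch common to the promoters of Obox1, Obox2, Obox5 and Obox7. Its presence in those 4 was therefore fixed, and among 32851 promoters of 27025 genes, searched on both strands, no other held it exactly. The run began 101 bases upstream of the annotated start in Obox1, 113 in Obox5, 87 in Obox7 and 4 in Obox2, whose annotated start therefore lay further upstream relative to the shared sequence. Where both windows overlapped, the promoters of Obox1 and Obox2 were identical over 203 bases. Obox5 was 94.8% identical to Obox1 and 96.4% to Obox7, whereas Obox3 was between 57.0% and 71.1% identical to the others. The lowest value was that with Obox2, whose window lay further upstream relative to the run. In the printed sequences most differences between Obox3 and Obox1 lay upstream of the run.

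Short motifs bound by the introduced or related factors were counted on both strands of the same windows. The E-box CANNTG was present in Obox1, Obox2, Obox5 and Obox7 and in 72.3% of all promoters. In all 4, 1 E-box began just upstream of the shared run and 1 lay within it, at 108 and 73 bases upstream of the start in Obox1, 120 and 85 in Obox5, and 94 and 59 in Obox7. TAATTG and TAATTA, sites described for NOBOX, and TGATTG, described for LHX8, occurred in none of the 5 promoters and in 8.00%, 5.29% and 14.0% of all promoters. TAATCC, the site described for OBOX proteins, and TATAAA were found in Obox3 alone of the 5, and in 7.06% and 13.6% of all promoters. The sequence TATATAA, which was added after the promoters had been read, was present in Obox1, Obox3, Obox5 and Obox7, at 19, 30, 31 and 5 bases upstream of the start, and in 3.24% of all promoters. In Obox2 the shared run ended at base 290 of the 300 in the window, which stopped before the place that TATATAA has in Obox1. A match is a description of the sequence and not evidence of binding.

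The coding sequences are shown because they set how far reads can tell these genes apart. The first 90 coding bases of the longest annotated coding sequence (GENCODE vM21) are printed with bases that differ from Obox2 in capitals.
Obox2: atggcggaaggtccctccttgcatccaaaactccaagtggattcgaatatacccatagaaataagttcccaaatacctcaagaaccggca
Obox1: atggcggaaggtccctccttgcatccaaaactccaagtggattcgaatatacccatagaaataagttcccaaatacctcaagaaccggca
Obox7: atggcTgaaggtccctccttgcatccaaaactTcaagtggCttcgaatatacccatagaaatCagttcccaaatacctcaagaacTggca
Obox5: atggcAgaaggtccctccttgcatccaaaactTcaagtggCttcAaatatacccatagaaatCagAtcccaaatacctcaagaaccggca
Obox3: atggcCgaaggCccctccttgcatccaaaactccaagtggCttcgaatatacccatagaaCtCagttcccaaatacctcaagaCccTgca

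Obox1 and Obox2 were identical over these 90 bases, while Obox7 differed from Obox2 at 5, Obox5 at 6 and Obox3 at 7. Over the aligned part of the whole coding sequence, Obox1 and Obox2 were 98.2% identical, Obox5 and Obox7 95.9%, and the other pairs among Obox1, Obox2, Obox3, Obox5 and Obox7 at least 91.9%. The longest annotated coding sequence of Obox2 held 151 codons before the stop, against 204 in Obox1, 218 in Obox7, 291 in Obox5 and 335 in Obox3. Obox6 (347 codons) was more distant, between 59.5% and 70.6% identical to these 5 members.

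The authors kept uniquely mapped reads only, so the share of each transcript that occurs in no other gene bears on every level given here. Windows of 53 and of 150 bases were examined, since the study states both read lengths without saying which library had which. Of the distinct 53-base windows, 37.1% of Obox2 and 44.2% of Obox1 occurred in no other annotated gene, against 81.0% of Obox3, 81.5% of Obox7 and 83.8% of Obox5. With windows of 150 bases these shares were 61.8% for Obox2, 65.9% for Obox1 and 95.5% for Obox3, and every window of Obox5, Obox6, Obox7 and Obox8 was found in its own gene alone. Windows were compared with annotated transcripts and not with the whole genome, and read pairs resolve more than single windows. The levels of Obox1 and Obox2 can therefore be underestimates, and the part of read length in differences between libraries was not tested.

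**Figure D1:**
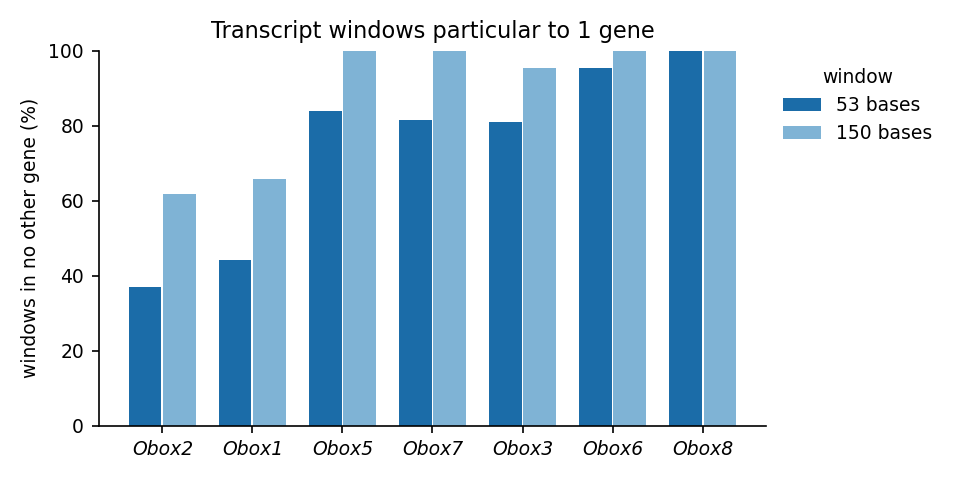
Share of the distinct windows of each Obox gene's annotated transcripts, in percent, that occur in no other annotated gene, for windows of 53 bases (dark bars) and 150 bases (light bars). Obox2 and Obox1 stand lowest, at 37.1% and 44.2% for 53 bases and 61.8% and 65.9% for 150 bases.

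Values are TPM as deposited, that is, reads relative to the exon length of the gene, scaled to a common total. The depth recovered from steps in the low values ranged from 9051761 to 17190271 reads on genes, and libraries of a group differed by more than sampling noise (chi-square per degree of freedom between 9.67 and 35.3). As a check of the cell type, all 10 oocyte markers examined (Zp1, Zp2, Zp3, Gdf9, Bmp15, Npm2, Ooep, Nlrp5, Dppa3 and Ddx4) passed the filter on low values, and their summed level was at least 12978 TPM in every library. The sum was at most 15395 TPM at day 7, and at least 36127.5 TPM in 4F and 29900 TPM in 8F at day 21. Dppa3 alone was at 7125 and 7804 TPM at day 7, while Bmp15 was lowest, at 23.5 and 31.6 TPM. The 6 granulosa cell markers summed to at most 3.98 TPM in any library. The 9 pluripotent stem cell markers summed to between 87.6 and 100 TPM at day 7. At day 21 they summed to between 244 and 361 TPM in 4F and between 152 and 190 TPM in 8F. Most of the 4F sum at day 21 was Pou5f1, at 24.4 and 30.1 TPM at day 7 and between 154 and 267 TPM then. Of 7 tested, limma called 2 higher from day 7 to day 21 in 4F (Pou5f1 and Esrrb) and 1 lower. The latter was Zfp42, at 20.6 and 21.9 TPM at day 7 and between 6.35 and 8.75 TPM in 4F at day 21. Nanog was at 0 in every day 21 library. Markers of trophoblast and simple epithelium (Krt8, Krt18, Krt19, Cdx2, Elf5, Hand1) summed to between 1145 and 1712 TPM at day 7, between 38.7 and 137 TPM in 4F at day 21 and between 26.1 and 33.6 TPM in 8F. Of these 6, Cdx2 and Elf5 were at 0 in both day 7 libraries.

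Obox2, Obox1, Obox5 and Obox7 were expressed in mini-oocytes at day 21, and all 4 had risen from day 7 in 4F-mini-oocytes. The summed level of the 7 members was 25.0 and 83.0 TPM in the libraries of day 7, between 1086 and 1323 TPM in 4F at day 21, and 1555 and 1265 TPM in 8F. The group means were 54.0 ± 41.0 TPM (SD, n = 2), 1180 ± 126 TPM (SD, n = 3) and 1410 ± 205 TPM (SD, n = 2). Obox3, Obox6 and Obox8 stayed below 0.5 TPM in every library.

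**Figure D2:**
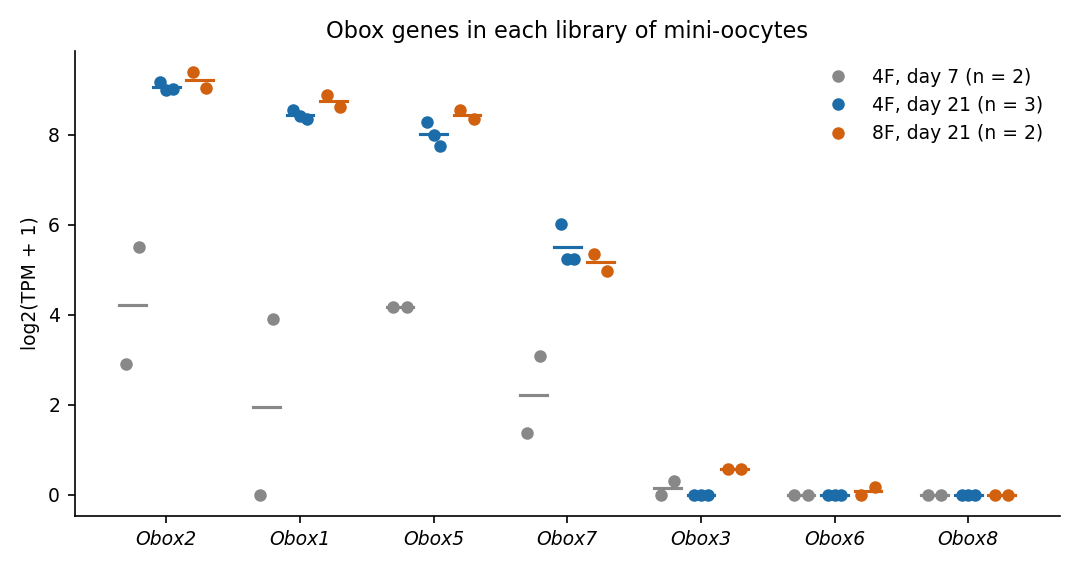
Level of each Obox gene as log2(TPM + 1) in every library, with a point per library and a line at the group mean, for 4F at day 7 (grey), 4F at day 21 (blue) and 8F at day 21 (orange). Obox2, Obox1, Obox5 and Obox7 at day 21 lie above all day 7 points of the same gene, and Obox3, Obox6 and Obox8 lie near 0 in all groups.

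Obox2 was the highest member at day 21. Its level was 6.50 and 44.4 TPM at day 7, 578, 506 and 513 TPM in 4F at day 21, and 671 and 520 TPM in 8F at day 21. The 5 libraries of day 21 lay far above both libraries of day 7, which differed from each other. At day 21 Obox2 ranked between 128 and 188 among all genes of a library by TPM.

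Obox1, the paralog that shares most of its sequence with Obox2, was listed at 0 and 14.0 TPM at day 7. At day 21 it reached 370, 337 and 322 TPM in 4F and 473 and 390 TPM in 8F. The day 7 library with 0 would have shown 3 reads of Obox1 as 0.402 TPM, and the other held 139 reads of it by the estimate from the TPM. The difference between 8F and 4F was not called by the limma test given below.

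Among the 4 expressed members, Obox5 had the day 7 libraries that lay closest together, at 16.9 and 17.0 TPM. At day 21 it was at 312, 252 and 214 TPM in 4F and at 371 and 324 TPM in 8F. All 5 day 21 libraries were above day 7. The difference between 8F and 4F was not called by the limma test given below.

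Obox7, the lowest of the 4 at day 21, was at 1.59 and 7.41 TPM at day 7. It was at 63.1, 36.9 and 36.8 TPM in 4F at day 21 and at 39.8 and 30.4 TPM in 8F. Its lowest value at day 21 remained above the higher of the day 7 values, and the groups of 4F and 8F overlapped.

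Obox3 was listed at 0 and 0.240 TPM at day 7, at 0 in all 3 libraries of 4F at day 21, and at 0.484 and 0.471 TPM in 8F. The values in 8F correspond to about 9 reads each, and 3 reads would have shown as at most 0.224 TPM in the 4F libraries of day 21. Obox6 was at 0 in 6 libraries and at 0.132 TPM, about 1 read, in 8F replicate 2. Obox8 was at 0 in all 7 libraries, where 3 reads would have shown as between 0.441 and 0.655 TPM. These limits cover counting error only.

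In each of the 5 libraries of day 21 the order of levels was Obox2, Obox1, Obox5 and Obox7. In 4F at day 21 the ranges of neighbours in this order did not overlap (Obox2 506 to 578, Obox1 322 to 370, Obox5 214 to 312 and Obox7 36.8 to 63.1 TPM). At day 7 the order was not shared by both libraries. Obox5 led replicate 1, with 67.7% of the summed Obox TPM, and Obox2 led replicate 2, with 53.4%. At day 21 Obox2 held between 41.1% and 47.2% of the sum, Obox1 between 28.0% and 30.8%, Obox5 between 19.7% and 25.6%, and Obox7 between 2.40% and 4.77%.

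The ratio of Obox1 to Obox2 was between 0.627 and 0.749 in the libraries of day 21 and was 0 and 0.317 at day 7. Because both genes lose reads to unique mapping, the ratio describes the reads that could be assigned and not the transcripts.

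**Figure D3:**
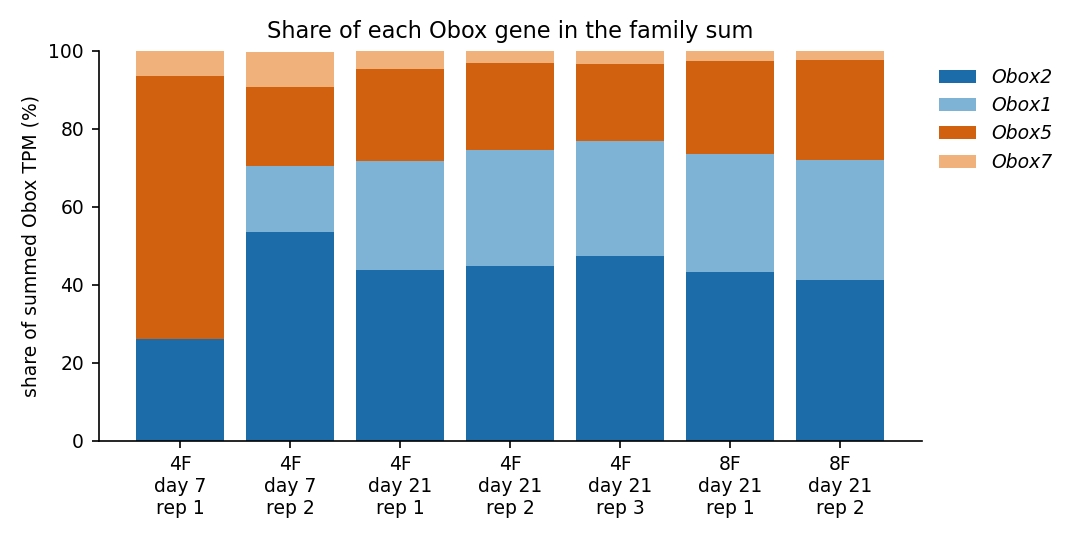
Share of the summed Obox TPM, in percent, held by Obox2, Obox1, Obox5 and Obox7 in each library. Obox2 holds between 41.1% and 47.2% in the 5 libraries of day 21, whereas the libraries of day 7 differ, with Obox5 at 67.7% in replicate 1 and at 20.4% in replicate 2.

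The first comparison asked how Obox expression changed as 4F-mini-oocytes grew from day 7 to day 21. The test was limma on log2(TPM + 1), for genes that reached 1 TPM in 2 or more libraries, and 4 of the 7 members passed this filter. Obox2, Obox5 and Obox7 had at least 1 TPM in both day 7 libraries and Obox1 in 1 of them, while Obox3, Obox6 and Obox8 were not tested. All 4 were higher at day 21 at an FDR of 0.05, where 40.6% of the 21780 genes tested were called, 25.3% higher and 15.3% lower. The largest log2 fold change was that of Obox1 (6.47 ± 0.99 SE, adjusted p = 0.00277), followed by Obox2 (4.85 ± 0.67, adjusted p = 0.0018), Obox5 (3.84 ± 0.17, adjusted p = 4.59e-05) and Obox7 (3.27 ± 0.51, adjusted p = 0.00305). The 95% intervals of these log2 fold changes were 4.09 to 8.84, 3.25 to 6.45, 3.44 to 4.24 and 2.04 to 4.50, and each interval overlapped the other 3.

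As ratios of mean TPM, Obox2 was 20.9 times, Obox5 15.3 times and Obox7 10.1 times as high at day 21 as at day 7. The mean of Obox1 was 48.8 times as high, a ratio that rests on 1 day 7 library since the other was at 0. Comparing the lowest day 21 library of 4F with the highest of day 7 gave 22.9 for Obox1, 11.4 for Obox2, 12.6 for Obox5 and 4.96 for Obox7.

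The size of the change, but not the call, depended on the day 7 libraries for 3 of the 4 genes. Without day 7 replicate 1 the log2 fold change was 4.51 for Obox1, 3.55 for Obox2 and 2.42 for Obox7. Without day 7 replicate 2 it was 8.42, 6.15 and 4.12. Obox5 gave 3.84 in both cases. The trophoblast and simple epithelium markers given above fell together with the rise of the Obox genes, with 4 of 4 tested called lower (15.3% of all genes tested were) and a median log2 fold change of -5.49, Krt19 and Hand1 having passed the filter through day 7 only, and their part in the Obox result was not tested.

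**Figure D4:**
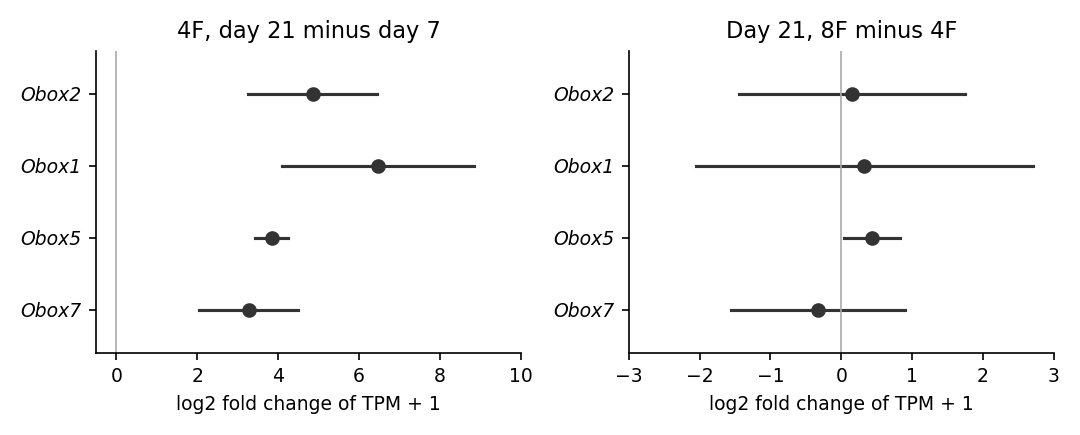
Log2 fold change of TPM + 1 for the 4 Obox genes tested, with 95% intervals from limma as lines, for day 21 minus day 7 in 4F (left) and for 8F minus 4F at day 21 (right). All 4 intervals of the left panel lie above 0, and in the right panel those of Obox2, Obox1 and Obox7 span 0 while that of Obox5 runs from 0.03 to 0.83.

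The calls were read against the scaling of the table. Over all genes tested the median log2 fold change from day 7 to day 21 was 0.17, with 5516 genes called higher and 3331 lower. Under median-of-ratios rescaling the median was -0.06 and the split 4195 higher and 4437 lower, under quantile normalization it was 0.04 with 4347 and 4008, and with voom on recovered reads it was -0.32 with 3251 and 5425. The 4 Obox genes were called higher under each of these, with log2 fold changes between 2.98 and 6.21 after median-of-ratios rescaling.

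The second comparison asked whether Obox expression at day 21 differed between 8F- and 4F-mini-oocytes. The 4F and 8F cells came from separate derived lines, and the 8F line carried an Npm2-mCherry reporter. An effect of the 4 added factors and an effect of the line therefore cannot be told apart. No member was called between 8F and 4F by limma, where 8.37% of all genes tested were called, 3.95% higher and 4.41% lower. At an unadjusted p under 0.05 there was 1 member, Obox5, and 4858 of the 21780 genes tested. Voom on recovered reads called Obox5 alone of the members, and 2182 of 21232 genes in all. Obox5 was higher in 8F by 0.43 on the log2 scale (95% interval 0.03 to 0.83, adjusted p = 0.191), and by 0.57 with voom (adjusted p = 0.0339). The difference therefore did not pass the threshold of the test used for all other statements.

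For the other members the difference between 8F and 4F was not resolved. The fold of 8F over 4F had a 95% interval of 0.242 to 6.50 for Obox1, 0.367 to 3.36 for Obox2 and 0.338 to 1.86 for Obox7, with adjusted p of 0.904, 0.939 and 0.784. The spread behind these intervals was estimated over all 3 groups, in which the day 7 libraries stood apart from each other. With day 7 replicate 1 left out the adjusted p was 0.178 for Obox1 and 0.571 for Obox2. The log2 difference of Obox2 was 0.15 with all libraries and changed sign to -0.03 without 8F replicate 1.

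Obox3 was above 0 in both 8F libraries and at 0 in all 3 libraries of 4F at day 21. The gene did not pass the filter, and at about 9 reads a library no test was made.

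The other Obox loci were examined for reads of their own. The table held 48 Obox pseudogenes, of which 22 were at 0 in every library and 26 were above 0 in at least 1. Only 2 of them exceeded 5 TPM in any library, Obox3-ps7 (12.6 TPM at day 7 in replicate 2 and 15.2 TPM at day 21 in 4F replicate 2) and Obox4-ps2 (up to 6.99 TPM in 8F replicate 1). Pseudogenes held 9.23% and 17.8% of all Obox TPM in the day 7 libraries and between 0.447% and 1.68% at day 21. Their summed level did not fall in the same way. It was 2.55 and 18.0 TPM at day 7, between 5.94 and 19.4 TPM in 4F at day 21, and 16.7 and 8.71 TPM in 8F. In number, 4 and 4 were above 0 at day 7, 7 or 8 in 4F at day 21, and 17 and 14 in 8F, whose libraries were also the most deeply sequenced. The part of depth in these numbers was not tested.

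Of the 6 pseudogenes tested, limma called none between day 7 and day 21, while 1 was lower at an unadjusted p under 0.05 and voom called 1 lower. Between 8F and 4F limma called 1, Obox4-ps31, at 1.96 and 1.32 TPM in 8F and at most 0.202 TPM in 4F. Obox4-ps31 passed the filter through the 8F libraries only, which fixed the direction of its difference, so its call carries no weight. Voom called none of the 6 in that comparison.

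The Obox genes were placed beside 24 other homeobox genes of oocytes and early embryos, of which 23 were listed and 13 tested. Of these, 8 rose from day 7 to day 21 and none fell by limma, by voom or at an unadjusted p under 0.05, with a median log2 fold change of 1.08, where 25.3% of all genes tested were called higher and 15.3% lower. The largest rises were those of Gsc (goosecoid, 3.30 ± 0.72 SE), Sebox (3.27 ± 0.84), known as a maternal effect gene, and Pou5f1 (2.77 ± 0.27), which encodes the POU factor OCT4. Gsc and Sebox were at 0 in both day 7 libraries and passed the filter through day 21 only. The filter thus fixed the direction of their change, and their calls carry no weight. They varied at day 21, from 4.54 to 25.8 TPM and from 1.93 to 21.0 TPM in 4F. Nobox and Lhx8 were also higher at day 21, but their values include the transgenes. Between 8F and 4F, 1 gene was called higher and 1 lower, where 3.95% and 4.41% of all genes tested were called. Cphx3, at 1.69 and 1.70 TPM in 8F and at 0 in every 4F library, passed the filter through the 8F libraries only, so its call carries no weight. Lhx8 was lower in 8F (185 and 188 TPM against 417 to 444 TPM).

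**Figure D5:**
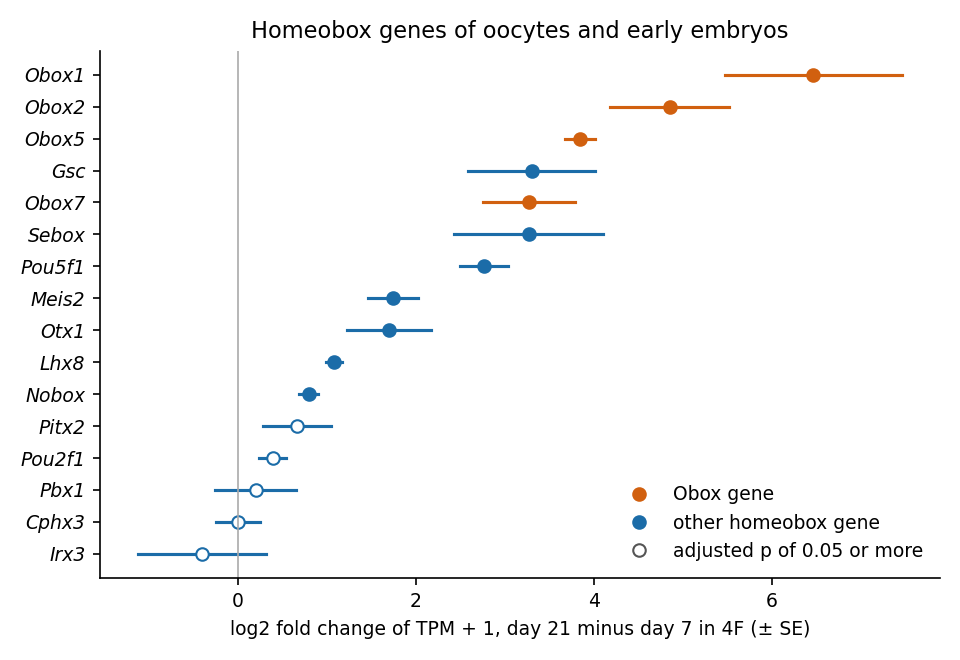
Log2 fold change of TPM + 1 from day 7 to day 21 in 4F-mini-oocytes, with the standard error as a line, for the 4 Obox genes tested (orange) and 12 of the 13 other homeobox genes tested (blue), with open points for an adjusted p of 0.05 or more. Obox1, Obox2 and Obox5 have the highest values, from 3.84 to 6.47, and Obox7 lies between Gsc and Sebox.

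Genes of embryonic genome activation, the process in which OBOX proteins are known to act, were examined next. Of 30 genes, 18 were tested, and from day 7 to day 21 limma called 5 higher and 4 lower, with a median log2 fold change of 0.02. These shares were not far from the 25.3% higher and 15.3% lower among all genes tested. The largest rise was that of Klf17, a Krüppel-like factor of oocytes, from 10.9 and 13.2 TPM to between 198 and 238 TPM in 4F at day 21 (log2 fold change 4.04). Nr5a2 (1.53) and Nelfa (0.95) rose less, and Dppa4 (-3.64), Gata3 (-3.30) and Dppa2 (-1.78) fell the most, of which Gata3 passed the filter through day 7 only. With voom 1 gene was called higher and 4 lower.

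Between 8F and 4F at day 21, 3 of the 18 were called higher and none lower by limma, where 1 was lower at an unadjusted p under 0.05 and voom called 7 higher and none lower. Of all genes tested, limma called 3.95% higher and 4.41% lower, and voom called 1360 of 21232 higher and 822 lower. The 3 were Tcstv1 (24.7 and 16.7 TPM in 8F against at most 3.24 TPM in 4F), Usp17la (3.04 and 1.07 TPM against 0) and Dppa2 (51.4 and 32.6 TPM against 10.8 to 18.9 TPM). Tcstv1 and Usp17la belong to families of near-identical copies, so their values are uncertain, and Usp17la, at 0 in every 4F library, passed the filter through the 8F libraries only.

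The Obox cluster was also compared with its surroundings, taken as the 22 other protein-coding genes from 500 kb before the first member to 500 kb after the last. Of these, 11 were tested. Limma called 3 higher at day 21, namely Sult2a4, a sulfotransferase (0 at day 7 and 12.9 to 28.8 TPM in 4F at day 21, and so past the filter through day 21 only), Zfp541 (log2 fold change 1.81) and Selenow, a selenoprotein (1.05). The share called higher was near the 25.3% of all genes tested. None was called lower by limma or at an unadjusted p under 0.05, whereas voom called 2 higher and 3 lower. The median log2 fold change of the 11 was 0.17, against 0.17 over all genes tested.

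Between 8F and 4F limma called none of the 11, with 1 higher and 2 lower at an unadjusted p under 0.05 and 1 lower by voom. Crx, a homeobox gene next to Obox6, was below 1 TPM in every library.

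To describe which genes had the pattern most like each member, log2(TPM + 1) was centred over the 7 libraries and compared by its root mean square difference among 10568 genes whose mean reached 10 TPM. Closest to Obox2 were Usp46os2, named as an RNA opposite to Usp46, and the deubiquitinase gene Usp46 (differences of 0.19 and 0.20), which share reads where strand is not used. Closest to Obox1 were Tfap2e, an AP-2 factor (0.39), Gm44574 (0.43) and Eif4e1b, an oocyte form of the cap-binding factor eIF4E (0.45). Closest to Obox5 were D130058E05Rik (0.18), Gm39154 (0.19) and Klf17 (0.20), and closest to Obox7 were Fbxw18, an F-box gene (0.27), Lcp1 (0.27) and Cfap47 (0.28). Like Obox2, Obox1 and Obox7, their closest genes differed between the day 7 libraries (Usp46os2 0.614 and 9.60, Tfap2e 0 and 4.87, Fbxw18 55.4 and 145 TPM). For Obox5 the closest gene did not (D130058E05Rik 0.584 and 0.407 TPM). The part of the day 7 libraries in these differences and in those between members was not tested.

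Between members the differences were as follows. The difference between Obox2 and Obox1 was 0.84, that between Obox2 and Obox5 0.82, and that between Obox5 and Obox7 0.69, while Obox1 and Obox7 differed most (1.70).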

How the data were processed

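RNA-seq of 7 pooled libraries of mini-oocytes was analysed. Per the submitters' notes, trimming was by Trim Galore, alignment to mm10 by HISAT2 and removal of rRNA reads by bedtools. Only unique alignments were counted with featureCounts on GENCODE genes (reads over several genes were split, and no strand option is stated), and the authors deposited TPM. The authors' edgeR test used counts, which were not used here. Groups were taken from the sample titles.

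The test was limma 3.58.1 (R 4.3.3) on log2(TPM + 1) (eBayes with a trend, 3 groups in 1 fit, two-sided, Benjamini-Hochberg over the 21780 genes that reached 1 TPM in 2 or more libraries, FDR 0.05). Contrasts were day 21 minus day 7 in 4F and 8F minus 4F at day 21, which share the 4F libraries of day 21. The fit was tested on simulated data. Reads were estimated from the steps of low TPM and GENCODE vM21 exon lengths (98.1% of genes matched with their version). At 3 reads, a gene of 1 kb shows between 0.515 and 0.764 TPM.

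Members, lists and motifs were chosen with earlier results of these data known. Named genes are all Obox rows and, from each list, up to 3 called genes per direction with the largest change. Gm44574 and the other genes of similar pattern are the closest 3 per member. Obox3-ps7, Obox4-ps2, Crx and the motif TATATAA were chosen after their values were seen. A gene of the homeobox list is counted but not reported here by name. Promoters are from RefSeq (GRCm38.p6). Sequences were aligned with Biopython 1.88, with end gaps free and left out of the identity.

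Alternatives were other pseudocounts and filters, rescaling, quantile normalization, eBayes without a trend, array weights, 2 groups only, a replicate block, voom on recovered reads, and each library left out.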

Additional observations from a re-analysis of the deposited data

How the results depend on the processing

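The count of 4 Obox genes called higher at day 21 than at day 7 in 4F was the same in each of the 18 alternatives. Between 8F and 4F at day 21 the count of members called was 0 in each alternative except voom on recovered reads, where it was 1 (Obox5, log2 fold change 0.57). The log2 fold change of Obox2 between 8F and 4F reversed to -0.031 without 8F replicate 1 and was between -0.031 and 0.336 over the fits that leave out 1 library. The count of all genes called between 8F and 4F, 1822, was 1051 with no filter on low values, 994 with eBayes without a trend, 3572 with array weights and 164 with the replicate block, and lay between 306 and 2221 when each library was left out in turn, lowest without 8F replicate 1 (306) and without 8F replicate 2 (357) and 943, 924 and 1021 without 4F replicates 1, 2 and 3 of day 21. Leaving out an 8F library leaves 1 library in that group, which is then assumed to vary like the others, and for the other alternatives the cause was not tested. The share of higher genes among those called between 8F and 4F, 47.3%, was 62.3% with voom, 61.1% with eBayes without a trend, 58.2% with no filter, 73.5% without 8F replicate 1 and 71.1% without 8F replicate 2, and between 39.3% and 51.6% in the other alternatives. Equal replicate numbers did not pair the libraries (correlations of their deviations between -0.037 and 0.011), and with the replicate block 7241 genes were called between day 7 and day 21, with 4 members called in that comparison and 0 between 8F and 4F. Depth limits what can be said of Obox3, Obox6 and Obox8, and 2 or 3 libraries a group limit every interval.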
